A study of Mus musculus with 3 samples.

Results

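Of the 3160 genomic regions in the deposited common list of Brachyury ChIP-seq regions, 248 lay in chains, which are runs of 3 or more consecutive regions on a chromosome with each midpoint within 50 kb of the next. They formed 77 chains and made up 7.85% of the list (Wilson 95% interval 6.96% to 8.84%, counting error only). The members were chosen by the distances between the listed regions and by nothing else, so the number of chains and the distances inside them describe the choice and carry no test. A further 598 regions formed 299 pairs within the same distance, and 2314 regions stood alone.

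The regions come from chromatin immunoprecipitation followed by sequencing in mesoendoderm cells, derived without serum in an Activin A dependent culture from the mouse embryonic stem cell line D3. The labels give (C3H/HeH x 101/H)F1 as the mouse strain of origin for every library, and no time of differentiation. There were 3 libraries from these cells. In 2 of them chromatin was precipitated with custom antibodies from different rabbits, both immunised with residues 249 to 436 of Brachyury fused to GST, and in the other pre-immune IgG served as a mock. The list holds the chromosome, start and end of each region on mouse build mm9 and no signal, so read depth is unknown and no value could be assigned to a library. Each library is the only member of its group, and no comparison here has replicates. Differences in width or spacing between sets of regions are therefore given as values with counting intervals or spreads, and none was tested.

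Brachyury is the founding member of the T-box family of transcription factors, which bind DNA through the T-box domain and recognise short sites that can face each other as a palindrome. It is made in the primitive streak, nascent mesoderm and notochord, and embryos without it lack posterior mesoderm and a proper notochord. Factors of this kind bind promoters and distant enhancers, and a developmental gene may be served by several such elements spread over a long stretch of its chromosome. Genes on mm9 were not used here, so each chain is called by its chromosome and position and assigned to no gene.

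The chains were mostly of the smallest size. Chains of 3 regions numbered 66 and held 198 regions, chains of 4 numbered 7, chains of 5 numbered 3, and a single chain had 7. Measured from the first base of the first region to the last base of the last, the chains spanned a median of 40.5 kb (quartiles 20.5 and 61.6 kb, range 1.83 to 136 kb). Together the 248 regions covered 217 kb, 7.86% of the length of all regions. In the median chain 7.52% of the span lay inside a region, and this share ran from 2.38% to 89.2%.

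Inside the chains there were 171 steps from a region to the next, with a median of 14.7 kb between midpoints (quartiles 3.42 and 29.5 kb). Of these, 69 (40.4%) were under 10 kb, 47 (27.5%) were 10 to 25 kb and 55 (32.2%) were longer than 25 kb. Short and long steps thus both occurred, but not in every chain. Every step was under 10 kb in 14 chains, no step was under 10 kb in 29, and 34 of 77 chains (44.2%) had steps on both sides of 10 kb. The longest step of a chain was a median of 2.56 times its shortest (quartiles 1.57 and 8.22). The plot of spacing separates evenly spaced chains, close to the diagonal, from those in which a tight group is joined to a distant member.

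**Figure D1:**
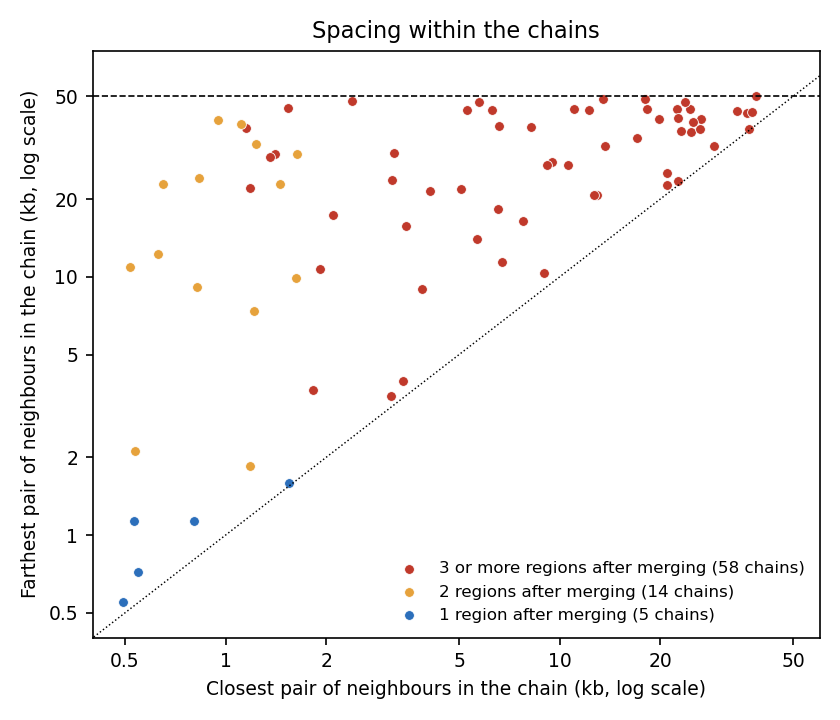
Closest (horizontal) and farthest (vertical) distance between neighbouring midpoints in each of the 77 chains, in kb on log axes. Each point is a chain, its colour gives the regions left once neighbours with a gap under 1 kb are merged, the dashed line marks 50 kb and the dotted line equal distances. The 5 chains that merge into 1 region sit at the lower left, and most of the others have a farthest step above 10 kb.

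The distance that joins neighbours has no counterpart in the distribution of distances, as the histogram of distances shows. Just inside it lay a step of 49950 bp on chromosome 5, in the chain at 145217940 to 145307327. Just outside it, a step of 50102.5 bp on chromosome 18, between regions ending at 47479187 and starting at 47528211, kept 3 regions from forming a chain. The chain on chromosome 11 at 62308290 to 62365248 was followed after 51375.5 bp by a pair that would have made it a chain of 5.

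**Figure D2:**
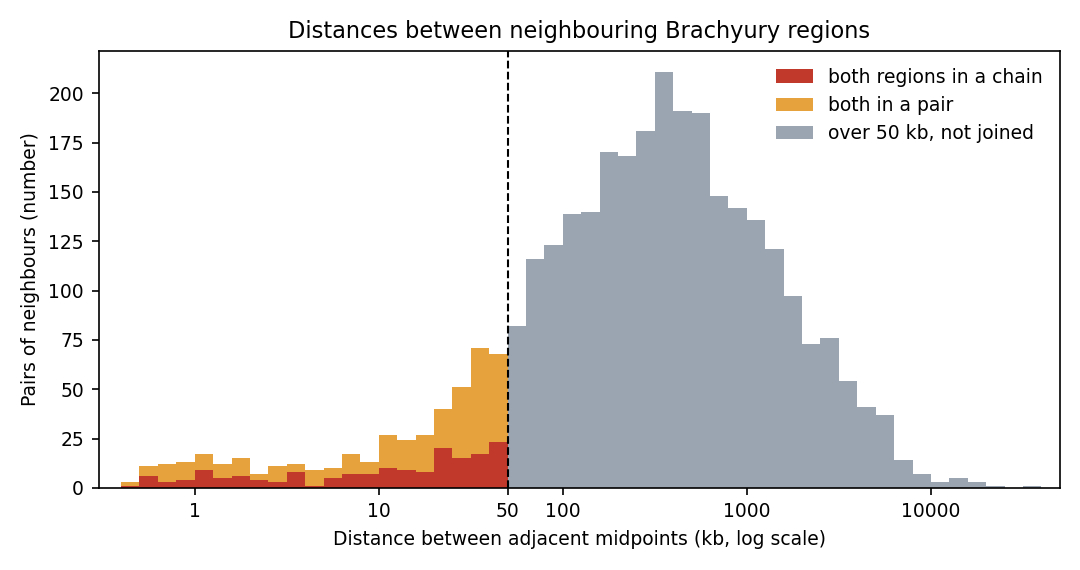
Number of pairs of neighbouring regions by the distance between their midpoints, in kb on a log axis, with the dashed line at 50 kb. Red marks the 171 steps inside chains, yellow the 299 inside pairs and grey the 2670 longer distances. The bin just below 50 kb holds 23 chain steps and 45 pair steps, and the bin just above it 82 longer distances, with no sharp break. The bins widen with distance, so the rise in counts is partly due to bin width.

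On chromosome 7, 7 regions made up the largest chain, which ran from 26022708 to 26102231. Its regions began at 26022708, 26033916, 26063761, 26067102, 26082488, 26100179 and 26101644, with widths of 677, 1935, 545, 1252, 743, 803 and 588 bp. The second of these was the second widest of all chain regions. Steps between the members ran from 1.36 kb, between the last pair, to 29.1 kb, and the next region outside the chain was 165 kb away. Chromosome 7 had no other chain.

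The 3 chains of 5 regions differed widely in extent. The shortest, on chromosome 2 at 152221736 to 152237346, held 4 regions packed between 152221736 and 152224932, with gaps of 8, 194 and 273 bp between them, and a last region of 908 bp beginning at 152236439. The 4 packed regions measured 820, 416, 767 and 719 bp. Also on chromosome 2, the chain at 70309748 to 70344507 had a group of 3 regions starting at 70309748, 70312559 and 70313581, of 809, 981 and 1294 bp. After a step of 22.1 kb it went on with regions of 611 bp at 70335984 and 734 bp at 70343774. The longest of all chains, on chromosome 11 at 69360050 to 69495906, spanned 136 kb with regions starting at 69360050, 69373361, 69418258, 69446089 and 69495071. Its shortest step was 13.5 kb, and its widths lay close together, at 749, 1085, 950, 943 and 836 bp (SD 127 bp over 5 regions). It has no tight group, unlike the other chains of this size.

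Among the 7 chains of 4 regions, the most compact lay on chromosome 19 at 45797204 to 45821286. Its regions began at 45797204, 45807465, 45809569 and 45820125 and measured 651, 1278, 893 and 1162 bp. A close inner pair, with midpoints 1.91 kb apart and a gap of 826 bp, lay between outer members at steps of 10.6 and 10.7 kb. On chromosome 2, the chain at 17948947 to 17986690 had regions of 740, 1157, 1132 and 1074 bp at steps of 12.6, 16.5 and 7.77 kb. Its median width of 1103 bp was the highest of these 11 chains of 4 or more regions. The chain on chromosome 1 at 88383520 to 88425408 consisted of a region of 1222 bp and, 37.6 kb further on, a group of 963, 878 and 899 bp starting at 88421254, 88422449 and 88424510.

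A pair of chains of 4 lay on chromosome 14. That at 65935241 to 65988525 had steps of 27.2, 14.7 and 10.6 kb between regions of 578, 1119, 915 and 789 bp. That at 49274331 to 49329547 was made of a pair of regions at each end, with a step of 45 kb between the pairs. The first pair measured 883 and 1008 bp, with midpoints 7.90 kb apart. The last measured 710 and 575 bp, with midpoints 1.54 kb apart and a gap of 901 bp. The first chain has steps that shorten along it, and the second is a double cluster. The chain on chromosome 2 at 33437834 to 33498619 held regions of 1085, 815, 971 and 1176 bp. Its steps were 29.9, 28.4 and 1.41 kb, the last of them across a gap of 340 bp. The chain on chromosome 11 at 120442321 to 120522470 spread 4 regions, of 1179, 1165, 997 and 937 bp, over 80.2 kb. No member of that chain was narrower than the median region of the list, at 850 bp.

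**Figure D3:**
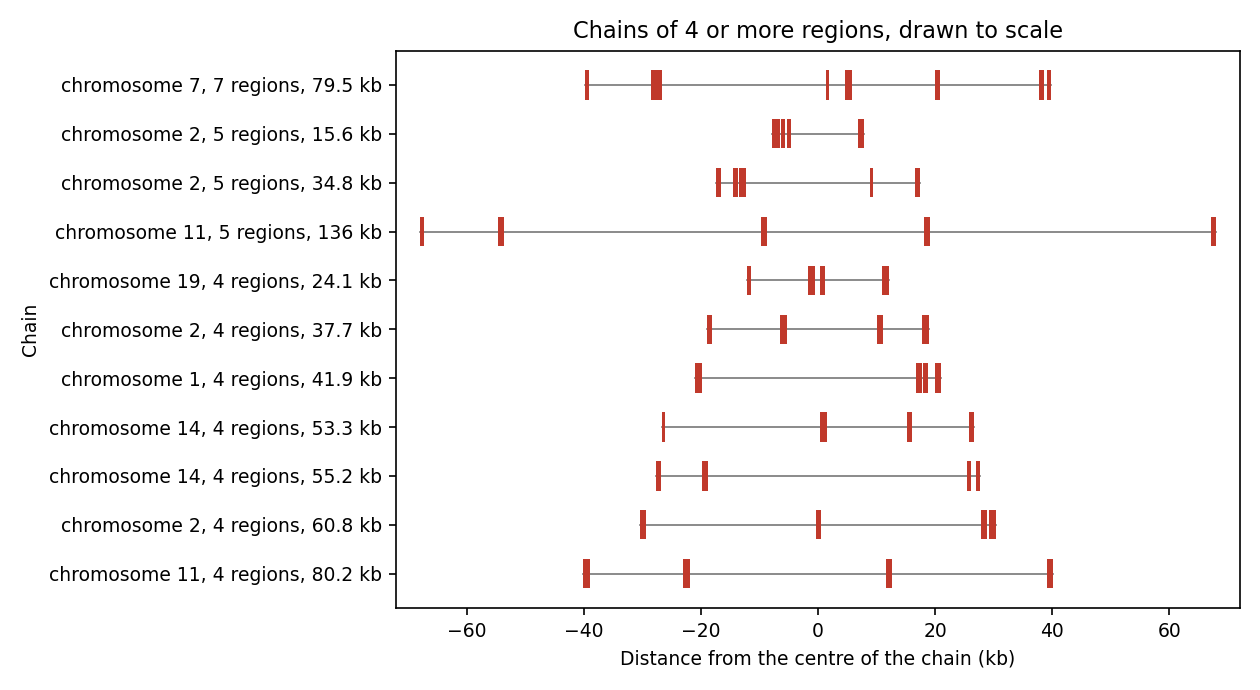
Map of the 11 chains of 4 or more regions, each centred, with distance from the centre of the chain in kb on the horizontal axis and a row per chain. Red boxes are regions drawn to scale and grey lines the span. Tight groups of 3 or 4 regions are seen at an end of chains on chromosomes 1 and 2, whereas the chain of 136 kb on chromosome 11 is spread out.

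Among the 10 shortest chains of 3 regions, 5 showed another arrangement, a narrow region between wider ones. The 3 shortest ran from 38088302 to 38090132 on chromosome 16, from 113025832 to 113027988 on chromosome 6 and from 26276694 to 26279256 on chromosome 14. In each, a narrow region lay between outer regions of 751 to 929 bp: widths ran 751, 20 and 820 bp on chromosome 16, 858, 137 and 929 bp on chromosome 6, and 898, 109 and 901 bp on chromosome 14. The same order was found on chromosome 6 from 99470564 to 99473781, with 1166, 26 and 1399 bp, and on chromosome 4 from 11313438 to 11317120, with 478, 39 and 832 bp. These were the only chains of 3 (5 of 66) in which a middle region under 300 bp lay between outer regions of at least 300 bp. The gaps were 168 and 72 bp on chromosome 16 and 28 and 627 bp on chromosome 14. On chromosome 6 they were 49 and 184 bp in the chain starting at 113025832, and 534 and 93 bp in the other. Each of these chains became 1 region when neighbours with a gap under 1 kb were merged. The chain on chromosome 4, with gaps of 921 and 1413 bp, became 2. On chromosome 17 at 63229820 to 63232551, all 3 regions were narrow, at 45, 84 and 105 bp.

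The other 4 short chains had no region under 300 bp. On chromosome 17 at 34255587 to 34259996, regions of 1123, 1315 and 1420 bp had gaps of 327 and 225 bp and filled 87.5% of the span. They became 1 region when neighbours with a gap under 1 kb were merged. On chromosome 16 at 30063013 to 30071122, regions of 1872, 902 and 1219 bp were separated by 1729 and 2388 bp. On chromosome 19 at 37948657 to 37956811, the widths were 582, 950 and 1031 bp and the gaps 2621 and 2971 bp. On chromosome 5 at 143579097 to 143585530, they were 777, 340 and 1155 bp with gaps of 3083 and 1079 bp. The chains on chromosomes 16, 19 and 5 kept 3 regions when neighbours with a gap under 1 kb were merged. They are thus short chains without near-touching members.

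The remaining 56 chains, all of 3 regions, were found on 17 chromosomes. On chromosome 1 they lay at 60429478 to 60489932, 72229258 to 72291202 and 75475174 to 75543554, all with steps above 20 kb. On chromosome 2 they lay at 29921487 to 29940597, 38142393 to 38203983, 74519957 to 74587969, 147865943 to 147886696 and 164704776 to 164737455. Of these, the chain starting at 147865943 held regions of 1209, 1480 and 1042 bp within 20.8 kb, and that starting at 74519957 had no other region within 954 kb. The only chain of chromosome 3 was at 94976463 to 95032995. It had a step of 44.7 kb and another of 11.0 kb.

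Chromosome 4 carried chains at 107360700 to 107407456, 125122374 to 125168164, 129127349 to 129192045, 135703518 to 135773636, 137860145 to 137886743 and 139377096 to 139389055. The last of these joined a region of 836 bp, a narrow neighbour of 121 bp and another narrow region of 147 bp 10.9 kb away. On chromosome 5 they lay at 104182593 to 104208598, 115886319 to 115940546, 123767672 to 123832305 and 145217940 to 145307327, the last being the longest chain of 3, at 89.4 kb. Chromosome 6 carried chains at 52028691 to 52103834, 83371291 to 83433000, 117829202 to 117867388 and 124880787 to 124959821. In the first of these the regions were evenly placed, with steps of 36.9 and 37.5 kb.

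On chromosome 8 they lay at 35844070 to 35868706, 97855114 to 97902261, 108384141 to 108449833, 123011670 to 123062333 and 127277301 to 127317810. The first of these held regions of 679 and 611 bp, with midpoints 0.648 kb apart and a gap of 3 bp, and one of 1719 bp after a step of 22.8 kb. Merging neighbours with a gap under 1 kb left it with 2 regions. Chromosome 9 carried chains at 61186974 to 61214529, 63598010 to 63607337 and 107489691 to 107569875, and chromosome 10 at 7382518 to 7446420 and 126601965 to 126648901. The chain of chromosome 10 starting at 126601965 was even both in steps, of 23.4 and 22.6 kb, and in widths, of 902, 969 and 937 bp.

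On chromosome 11 they lay at 3166163 to 3237795, 57775721 to 57822764, 62308290 to 62365248, 68200297 to 68213958, 84405948 to 84418505 and 85547276 to 85589707. The chains starting at 68200297 and 84405948 were compact, at 13.7 and 12.6 kb, with widths of 860 to 1236 bp. Chromosome 12 carried chains at 81213907 to 81234059 and 88287719 to 88324853. On chromosome 13 they lay at 23830421 to 23856075, 54788609 to 54839789, 58460116 to 58541745, 93300204 to 93327814 and 102537371 to 102571897. The chain starting at 58460116 held the widest of all chain regions, of 2103 bp, between regions of 559 and 631 bp.

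Chromosome 14 carried chains at 62267280 to 62302191, 105833213 to 105900996, 115439227 to 115464530 and 122863388 to 122883872. Those starting at 115439227 and 122863388 opened with wide neighbours. In the former these measured 1513 and 1343 bp, with midpoints 1.45 kb apart and a gap of only 21 bp. In the latter they measured 1501 and 1237 bp, with midpoints 10.3 kb apart and a gap of 8970 bp. The only chain of chromosome 15 was at 83078395 to 83112252. On chromosome 16 they lay at 20672551 to 20723221 and 22517604 to 22551896, chromosome 17 carried those at 45700560 to 45711381 and 74694208 to 74738766, and chromosome 19 that at 6057538 to 6077728. The chain of chromosome 19 had widths of 746, 892 and 1276 bp.

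Chains occurred on 18 of the 19 autosomes. Chromosome 2 had 9 chains with 33 regions, 12.3% of its regions (Wilson 95% interval 8.87% to 16.7%), and chromosome 14 had 7 chains with 23 regions, 15.3% (interval 10.4% to 22%). At the other end were chromosome 3, with 3 of its 162 regions in a chain (1.85%, interval 0.632% to 5.30%), and chromosome 15, with 3 of 130 (2.31%, interval 0.788% to 6.57%). The list as a whole had 7.85% of regions in chains. Chromosomes 3 and 15 had 1 chain each, and these chromosomes were picked by their shares. Regions per Mb numbered 1.51 on chromosome 2, 1.31 on chromosomes 14 and 15 and 1.05 on chromosome 3. Chromosome 18 had 89 regions and 0 in chains, which allows a share of up to 3.37% with a limit of 3 counts. Chromosome X had 0 of 15, which allows up to 20%. Regions of a chain come together by the rule, so these intervals are too narrow and the limits too low. No chromosome is therefore read as above or below the list.

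**Figure D4:**
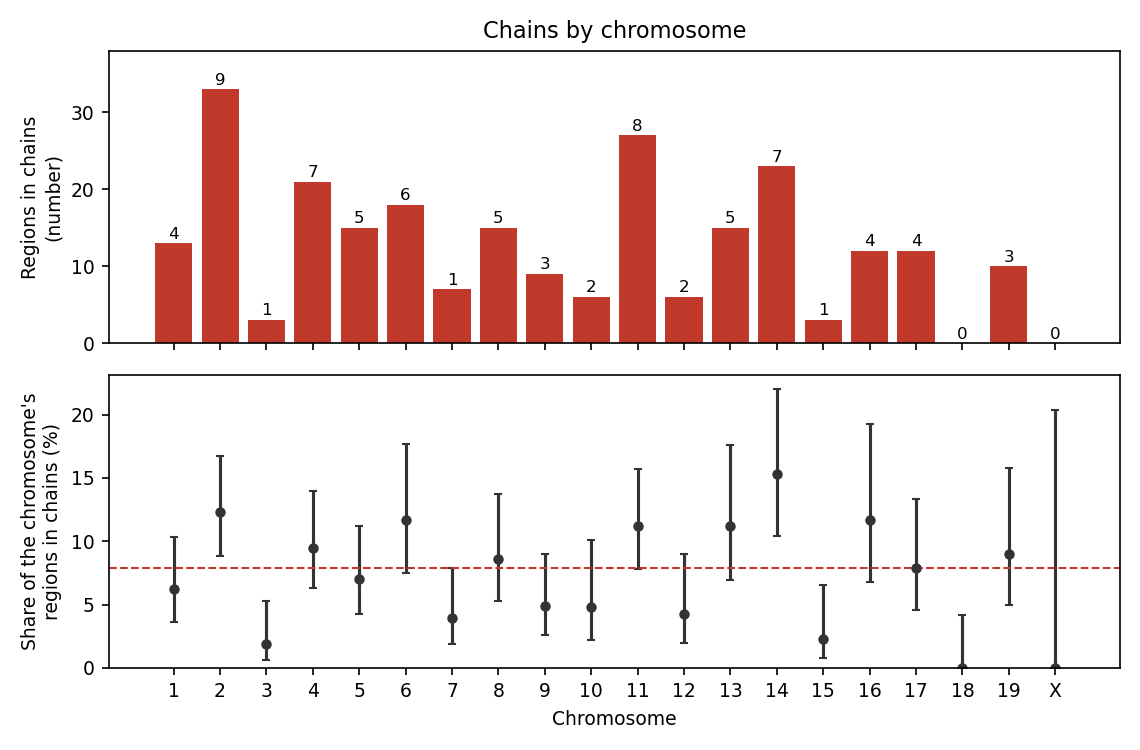
Top, number of regions in chains on each chromosome, with the number of chains above each bar. Bottom, share of the chromosome's regions that are in chains, in percent, with Wilson 95% intervals, and the dashed line at 7.85% for the whole list. Chromosomes 2, 11 and 14 hold the most chain regions, and chromosomes 18 and X hold 0.

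The rule did not use widths. Regions in chains had a median width of 875 bp (quartiles 707 and 1044 bp, mean 876 ± 314 bp, SD, n = 248). Those outside chains had a median of 846 bp (quartiles 679 and 1019 bp, mean 874 ± 298 bp, SD, n = 2912), made up of 864.5 bp for regions in pairs and 841 bp for single regions. The difference of medians was small beside the spread in either set, and the means were nearly equal. The median width of the whole list was reached or passed by 140 of the 248 chain regions, or 56.5% (interval 50.2% to 62.5%). This held for 50.1% of all regions and 49.5% of those outside chains (interval 47.7% to 51.3%). The intervals on widths, here and below, treat regions as independent, which members of a chain may not be. No difference is therefore read from them.

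Very wide and very narrow regions were counted next, and their shares were not tested. Regions of 1200 bp or wider numbered 32 (12.9%, interval 9.29% to 17.6%), where 10.9% of all regions were as wide and 10.7% of those outside chains (interval 9.67% to 11.9%). The share among regions in pairs was higher than in chains, at 13.7% (interval 11.2% to 16.7%), and all these intervals overlapped. The wide members were spread over 25 chains, of which 7 had 2 or more. Regions narrower than 300 bp numbered 10 (4.03%, interval 2.20% to 7.26%), where 1.42% of all regions were as narrow and 1.20% of those outside chains (interval 0.865% to 1.67%). Among regions in pairs it was 2.34% (interval 1.40% to 3.89%), which overlaps the interval of the chains. A narrow region can be the member that completes a chain: with regions under 300 bp left out, 70 chains with 227 regions remained. The share of narrow regions in chains thus depends partly on the rule, and nothing is read from it. Of the 10 narrow members, found in 7 chains, 8 had a neighbour at a gap under 1 kb, where 14 of 35 narrow regions outside chains did. Close neighbours are joined by the rule, so nothing is read from this difference. Of the same 10, 7 were inner members, and each of their chains had 3 regions and so a single inner position.

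**Figure D5:**
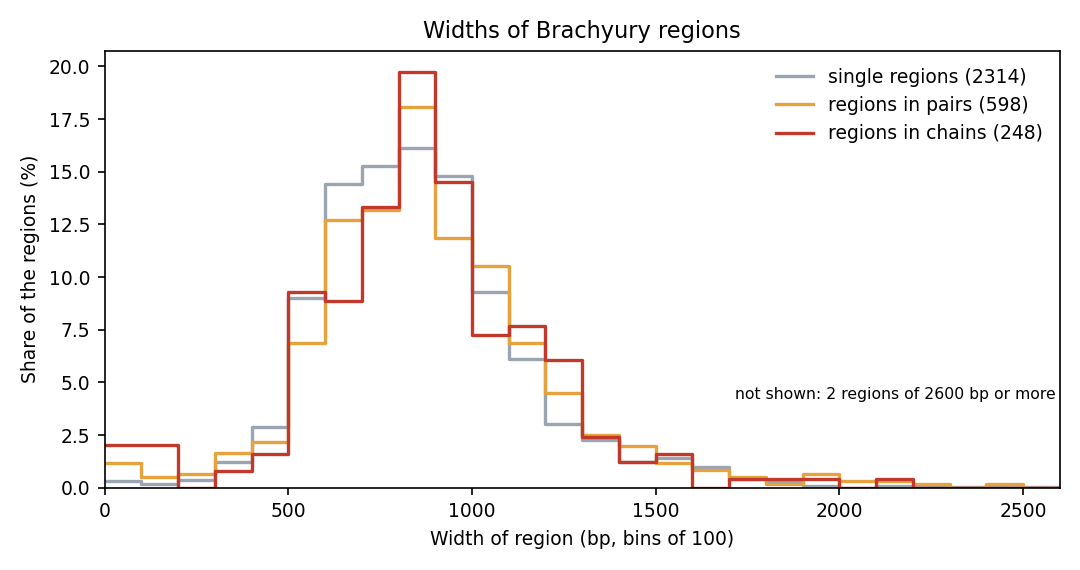
Share of regions in each 100 bp bin of width, in percent, for the 248 regions in chains (red), the 598 in pairs (yellow) and the 2314 single regions (grey). The 3 outlines overlap over most of their range. The share in the bins under 200 bp is higher for chain regions, which depends partly on the rule.

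Neighbours at a gap under 1 kb were part of the chains' makeup. In the chains 57 regions (23%, interval 18.2% to 28.6%) had such a neighbour, and 25 chains held at least 1 such gap. Over all regions the share was 4.84%. This share follows from the rule, since a region with so close a neighbour is already in a pair, and nothing is read from it. Among pairs it was 16.1% (interval 13.3% to 19.2%). Leaving out all regions with such a neighbour, the median width was 883 bp in chains (n = 191) and 847 bp outside them (n = 2816).

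In chains of 3, middle and outer members had similar median and mean widths. The middle region had a median of 894 bp (quartiles 713 and 1004 bp, mean 855 ± 389 bp, SD, n = 66). The outer ones had a median of 860 bp (quartiles 667 and 1034 bp, mean 869 ± 292 bp, SD, n = 132). The medians and means were thus in opposite order, and the SD was larger for the middle regions. The middle region was the widest of its chain in 21 of 66 (31.8%), where the middle is 1 of 3 positions. Members of a chain were about as unlike each other in width as chain regions in general. The pooled SD within chains was 292 bp, where the SD over all 248 regions was 314 bp. Regions with a neighbour at a gap under 1 kb were then left out, and the 58 chains that kept at least 2 regions were used. In these the pooled SD within chains was 270 bp and the SD over the same 177 regions 271 bp. In 17 of 77 chains (22.1%) every region reached the median width of the list. The number to be met without any likeness in width was not worked out, so nothing is read from this count.

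The surroundings of the chains were compared by counting other loci, where a locus is a chain, a pair or a single region, within 1 Mb of the outermost midpoints. These counts use the same positions as the rule, which favours dense stretches, so they describe the choice and nothing is read from them. Chains had a median of 4 other loci (quartiles 2 and 5, mean 3.97 ± 1.92, SD, n = 77). Pairs had a median of 3 (mean 3.35 ± 2.21, SD, n = 299) and single regions of 3 (mean 3.19 ± 2.13, SD, n = 2314). At least 5 other loci were counted beside 31 chains (40.3%, interval 30% to 51.4%), 82 pairs (27.4%, interval 22.7% to 32.7%) and 579 single regions (25%, interval 23.3% to 26.8%). Stretches of 1 Mb beside neighbouring loci overlap, so these counts are not independent. In this window, 2 chains (2.60%, interval 0.715% to 8.98%) had no other region, as did 22 pairs (7.36%, interval 4.91% to 10.9%) and 207 single regions (8.95%, interval 7.85% to 10.2%), with overlapping intervals.

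Distances from chains to other chains and regions also use the positions of the rule, so they too describe the choice and nothing is read from them. Of 59 pairs of consecutive chains on a chromosome, 0 lay less than 1 Mb apart, and the closest, on chromosome 11, were separated by 1.13 Mb between 84418505 and 85547276. The next, also on chromosome 11, had 1.15 Mb between 68213958 and 69360050. A chain within 1 Mb was found for 0 of 77 chains, which allows a share of up to 3.90% with a limit of 3 counts, for 44 of 299 pairs (14.7%, interval 11.1% to 19.2%) and for 254 of 2314 single regions (11.0%, interval 9.77% to 12.3%). The distance from a chain to the nearest region outside it was a median of 148 kb (quartiles 93.4 and 300 kb), with 24 of 77 chains having such a region within 100 kb. The most isolated chains were those on chromosome 6 starting at 113025832, with 1150 kb to the nearest region, and on chromosome 13 starting at 102537371, with 1096 kb.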

How the data were processed

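The deposited list gives chromosome, start and end in base pairs for each region. The submitters' processing notes name Bowtie, MACS2 and build mm9, without versions or settings. The sources used here do not say how the peaks of each antibody were combined or whether the mock served as control. Starts were raised by 1, so positions count from 1. The list held 0 duplicated regions and 0 overlapping neighbours. Regions were sorted, joined by midpoint and counted with Python 3.11.15, numpy 2.4.6 and pandas 2.3.3, Wilson intervals came from scipy 1.17.1 and figures from matplotlib 3.10.9. Chain finding was tested on simulated lists with planted chains. The members, lists and settings were chosen with earlier results of these data known. Chains of 4 or more regions and the 10 shortest chains of 3 are described in full. Other regions singled out were chosen after their values were seen. Planned measurements of sequence motifs, distance to gene starts and gene lists were not analysed here, because no genome or annotation of mm9 was used, and no sequence is shown.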

Additional observations from a re-analysis of the deposited data

How the results depend on the processing

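The joining distance sets how many chains there are. With 25 kb between midpoints there were 38 chains with 122 regions, and with 100 kb there were 163 chains with 567 regions, which included all 248 described here. With 50 kb measured between facing edges there were 79 chains with 254 regions. Merging neighbours with a gap under 1 kb left 58 chains with 183 merged regions, made from 189 of the 248, and leaving out regions under 300 bp left 70 chains with 227 regions. The median width of chain regions ranged from 875 to 895 bp over these settings; it was not recomputed for facing edges. Other settings for motifs and gene starts were not run. No paired analysis was possible because the list has no value per library. The depth of the libraries is unknown, so chains cut short by regions lost at low depth could not be judged.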
